A study of Mus musculus with 6 samples.

Results

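The genes described here encode enzymes that add or remove methyl and acetyl groups on histones, measured in cells labelled as mouse embryonic stem cells. They were taken by symbol from the deposited table: lysine methyltransferases, lysine demethylases, PRDM proteins, arginine methyltransferases, acetyltransferases, deacetylases and sirtuins. The symbol pattern matched 83 genes, of which Kdm2b, Prdm14, Kdm5c and Kdm6a were left out by name. That left 79 members among 17912 genes, and 77 of the 79 had a mean of at least 10 scaled counts over the 6 libraries and were tested. Below that mean were Prdm6 and the pseudogene Kat2b-ps.

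Poly(A) RNA was sequenced from 3 clones of genotype EXOSC2_KD, titled shEXOSC2 clone 5, 6 and 7, and from 3 libraries of genotype WT, titled control 1, 2 and 3. EXOSC2 belongs to the RNA exosome, the complex that trims and degrades RNA from its 3′ end. Each knockdown library is 1 clone with a short hairpin RNA. The sources used here do not give the parental line, the hairpin sequence or any hairpin in the WT cells. Nor do they say whether the control libraries are separate cultures. A p-value here reflects no more than the scatter among these libraries, which in the controls may be technical.

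Values are scaled counts (reads divided by 1 factor per library), with 24268430 to 26494985 reads in the clones and 21107761 to 24633836 in the controls. Exosc2 itself measured 1138, 997 and 981 in clones 5, 6 and 7, against 2457, 2473 and 1954 in control replicates 1, 2 and 3. The groups did not overlap, with a log2 fold change of -1.14 ± 0.13 (limma, adjusted p = 5.1e-05; ± after a log2 fold change is its SE throughout) and an exact two-sided permutation p of 0.1, the smallest that 3 against 3 allow. Of 8 stem cell markers, 7 were lower in the clones and Pou5f1 was higher. Nanog stood at 0.995, 1.03 and 0 scaled counts in the clones and 9901, 9275 and 9918 in the controls, and Zfp42 at 0, 0 and 0 scaled counts in the clones and 6668, 6951 and 5223 in the controls. Pou5f1 stood at 89025, 93458 and 90859.8 scaled counts in the clones and 18987, 26446 and 17702 in the controls. The stem cell label thus meets its defining markers in the controls and lacks Nanog and Zfp42 in the clones. The summed level of 11 fibroblast and feeder-cell markers was 50503 to 65610.2 in the clones and 9283 to 10495 in the controls, and 9 of the 10 tested were higher. Of 7 surface epithelium markers 4 were higher and 3 lower, and of 3 neuronal ones 2 were higher while Elavl3 had no read in the clones. Of the blood markers Cd68 was higher, at 1757, 2223 and 1876 scaled counts in the clones and 602, 769 and 1033 in the controls, Ptprc measured 11.9, 11.3 and 13.8 scaled counts in the clones and 8.52, 0 and 7.03 in the controls, and Spi1 had no read in the clones. Their part in the results below was not tested, and in bulk RNA fewer cells of a type and less RNA per cell cannot be told apart.

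Histone methyltransferases place methyl groups on defined lysines and arginines, and demethylases take them off. Methylation of histone H3 at lysine K4 marks promoters and enhancers in use, while methylation at K9 of H3 and K20 of H4 marks compacted chromatin. Acetyltransferases and deacetylases set the acetylation that loosens chromatin at active genes. In embryonic stem cells these enzymes keep pluripotency genes accessible and lineage genes poised, and their makeup is known to shift as cells differentiate.

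Of the 77 tested members, 28 rose in the clones, 26 fell and 23 were not called, at a Benjamini-Hochberg adjusted p under 0.05 in limma over all 15179 genes tested. Across all genes 73.5% were called, 35.2% higher and 38.3% lower, so the members' 70.1% lies near the background and says nothing particular about them. The split moved to 20 higher and 34 lower under quantile normalization. Clone and control values did not overlap for 60 members (31 with all clones above, 29 with all clones below), where 77.3% of all genes did not overlap (36.7% above and 40.6% below). At least 2-fold changes that were called numbered 13 higher and 17 lower among the members, where 22.4% and 25.7% of all genes passed the same bar. The members' median log2 fold change was 0.05, beside -0.07 over all genes. Log2 fold changes of at least 2 in size, called or not, were found in 8 of 77 members (10.4%) and in 25.6% of all genes tested; this difference was not tested.

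The 3 promoters shown here belong to Kdm5b and Kat6b, which hold the largest falls among the more abundant members, and to Kat2b, which rose while its close relative Kat2a was not called; they were chosen after their values were seen. They come from RefSeq (GRCm38.p6) and run from 250 bases before the transcription start to 50 after it, printed 5′ to 3′. The windows are chr1:134559928-134560227, plus strand for Kdm5b, chr14:21499520-21499819, plus strand for Kat6b and chr17:53566721-53567020, plus strand for Kat2b, and for Kat6b and Kat2b the first of 2 listed starts is given. The Kat6b window lies inside the gene as annotated in GENCODE M21, which begins at chr14:21481434, so that upstream start is not covered. Capitals mark matches on either strand to the GC box GGGCGG, the CCAAT box CCAAT, the E-box CACGTG, the AP-1 site TGACTCA and the cyclic AMP response element TGACGTCA.
Kdm5b: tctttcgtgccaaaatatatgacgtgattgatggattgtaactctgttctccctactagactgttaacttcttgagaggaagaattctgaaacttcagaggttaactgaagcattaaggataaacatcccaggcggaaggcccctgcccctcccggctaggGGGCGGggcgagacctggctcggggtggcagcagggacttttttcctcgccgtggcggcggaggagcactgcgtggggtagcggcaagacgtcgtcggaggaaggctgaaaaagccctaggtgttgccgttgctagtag
Kat6b: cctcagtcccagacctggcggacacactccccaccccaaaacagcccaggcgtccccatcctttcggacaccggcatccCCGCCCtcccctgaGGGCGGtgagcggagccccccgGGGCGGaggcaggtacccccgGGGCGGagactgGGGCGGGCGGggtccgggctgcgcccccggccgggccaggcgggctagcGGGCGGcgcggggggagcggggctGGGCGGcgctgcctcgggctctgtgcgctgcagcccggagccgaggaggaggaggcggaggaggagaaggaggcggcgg
Kat2b: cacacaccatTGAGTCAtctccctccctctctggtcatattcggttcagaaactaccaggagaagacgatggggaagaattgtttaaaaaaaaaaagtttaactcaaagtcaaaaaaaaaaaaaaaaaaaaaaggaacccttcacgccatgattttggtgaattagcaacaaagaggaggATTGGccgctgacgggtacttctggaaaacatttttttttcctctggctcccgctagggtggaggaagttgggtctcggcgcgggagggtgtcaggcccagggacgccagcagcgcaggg
The Kat6b window held 8 GC boxes (some overlapping) and 32 CpG dinucleotides, the Kdm5b window 1 GC box and 17 CpG, and the Kat2b window 1 CCAAT box, 1 AP-1 match and 11 CpG. A promoter sequence was matched for 60 members, using the first listed start. A GC box was found in 37 of these 60 (61.7%), against 35.9% of 27025 promoters. Those 27025 were not limited to the 17912 genes of the table or to tested genes, whereas nearly all members were tested. For the motifs and CpG alike, a difference from all promoters is thus no trait shown for this family. The CCAAT box was found in 45.0% of member promoters and 37.9% of all, the E-box in 8.33% and 7.24%, AP-1 in 3.33% and 5.17%, and the cyclic AMP response element in 1.67% and 1.88%. Among members called higher, 12 of 18 promoters held a GC box, and among members called lower, 14 of 24 did. The median number of CpG per window was 22.5 in member promoters and 7 in all. Such matches describe letters in a window and show no binding.

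**Figure D1:**
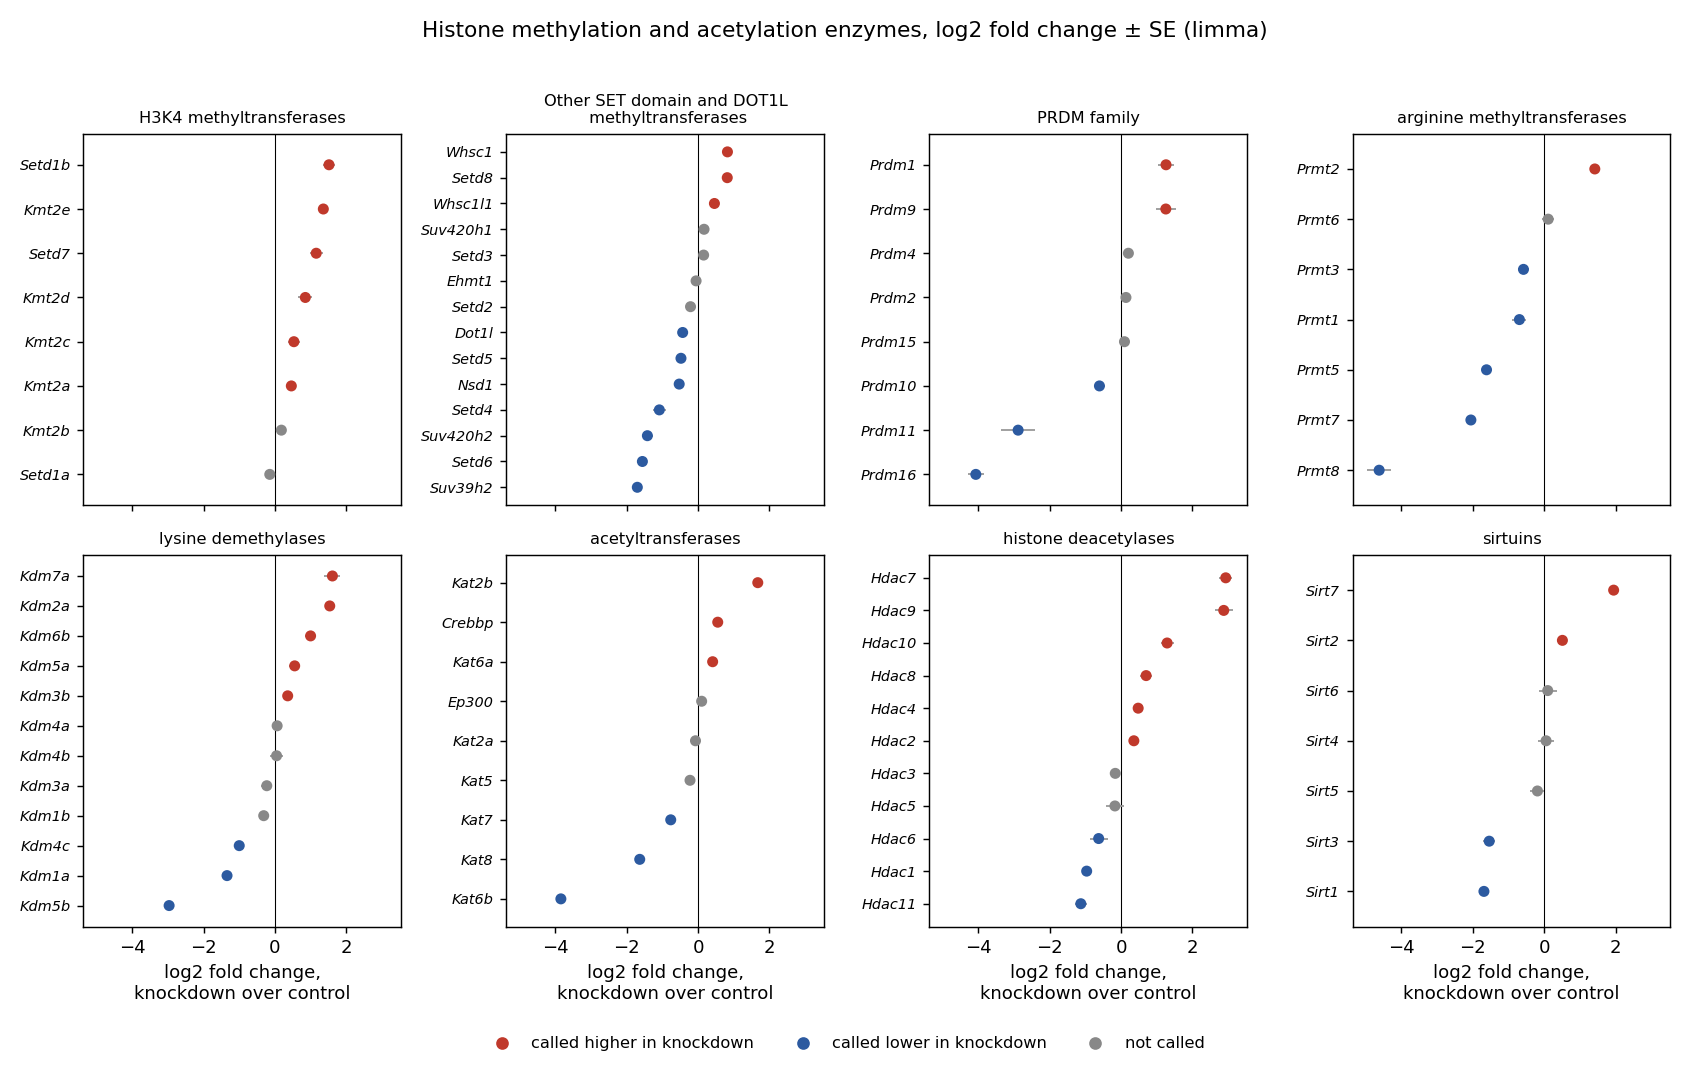
Log2 fold change (knockdown over control, x axis, on the log2(scaled count + 1) scale) of the tested members in 8 panels by role, 1 member left out, with bars of 1 SE from limma. Red points were called higher, blue points lower and grey points were not called; Prmt8, Prdm16 and Kat6b lie furthest left (the fitted point of Prmt8, with no read in the clones, is no estimate of its fold), and Hdac7 and Hdac9 furthest right.

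Of 8 tested genes grouped here with the H3K4 methyltransferases, Kmt2e among them, 6 rose in the clones, none fell and 2 were not called. Of all genes 35.2% were called higher and 73.5% either way, and the difference was not tested. The median log2 fold change was 0.69, beside -0.07 over all genes. Setd1b, the catalytic subunit of a complex that trimethylates H3K4 at promoters, measured 792, 800.4 and 881 scaled counts in clones 5, 6 and 7, against 295, 354 and 227 in control replicates 1, 2 and 3. Its level was 2.82 times the control mean (log2 fold change 1.51 ± 0.18, adjusted p = 6.3e-05 in limma), and no clone overlapped a control. The sister gene Setd1a measured 1001, 956 and 1059 scaled counts in the clones and 1053, 1136 and 1145 in the controls, which overlapped, with a log2 fold change of -0.15 ± 0.11 (adjusted p = 0.246, limma). Under quantile normalization Setd1a was called lower, at a log2 fold change of -0.37. Of Setd1a exon bases 51.8% are shared with the overlapping gene Gm49388 on the same strand, so its count is uncertain. Kmt2e, an MLL family protein that binds H3K4-methylated chromatin, measured 4032, 3634 and 3543 scaled counts in the clones and 1554, 1232 and 1615 in the controls, and all clones stood above all controls (log2 fold change 1.36 ± 0.13). About 9.31% of its annotated exon bases are shared with Srpk2 on the opposite strand. Setd7, which monomethylates H3K4 and several non-histone proteins, measured 2329, 2171 and 2329 scaled counts in the clones and 937, 815 and 1389 in the controls (log2 fold change 1.16 ± 0.18). These 3 had the largest log2 fold changes of the group.

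The MLL family genes Kmt2a, Kmt2c and Kmt2d rose less than Kmt2e. Kmt2d and Kmt2c, which monomethylate H3K4 at enhancers, had log2 fold changes of 0.85 ± 0.19 and 0.53 ± 0.17, and Kmt2a, the founding MLL gene, had a log2 fold change of 0.46 ± 0.13. A log2 fold change in brackets after a setting is the value under it; the settings are single libraries left out, quantile normalization, and subtraction in each library of the chromosome's median. The Kmt2a call was lost without clone 5 (0.40) and under quantile normalization (0.27). The Kmt2c call was lost without clone 5 (0.48), without clone 6 (0.49), under quantile normalization (0.32) and with chromosome medians subtracted (0.24); without control replicate 2 it was called at 0.35. Kmt2b, which acts at bivalent promoters, measured 2769.5, 2940.5 and 2999 scaled counts in the clones and 2238, 2762 and 2719.9 in the controls, with a log2 fold change of 0.18 ± 0.11 that was not called (adjusted p = 0.178, limma), although all clones stood above all controls, but was called with chromosome medians subtracted (0.37).

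Several shared subunits of these methyltransferases were lower. Of all genes tested, 73.5% were called, 38.3% lower and 35.2% higher, with a median log2 fold change of -0.07. From a list of H3K4 methyltransferase complex subunits, 12 tested of 13 listed, 6 fell, 2 rose and 4 were not called (median log2 fold change -0.31). That is 66.7% called, and the difference from all genes was not tested. The 3 with the smallest p, Ash2l, Wdr5 and Rbbp5, belong to the common core, whose other subunit gene Dpy30 was not called, at 2403, 2443 and 2373 scaled counts in the clones and 3011, 2626 and 2065 in the controls (log2 fold change -0.08 ± 0.14, adjusted p = 0.639 in limma; named after its values were seen). Ash2l measured 3591, 2994 and 3114 scaled counts in the clones and 11748, 10458 and 10057 in the controls (log2 fold change -1.73 ± 0.11). Wdr5 measured 2643, 2408 and 2539 scaled counts in the clones and 5866, 5423 and 4949 in the controls (log2 fold change -1.09 ± 0.10) and Rbbp5 1396, 1183 and 1224 scaled counts in the clones and 3426, 2845 and 3738 in the controls (log2 fold change -1.39 ± 0.13). In all 3 every clone lay below every control. Ash2l lies on chromosome 8 and Rbbp5 on chromosome 1, where the median log2 fold changes of all tested genes were -0.49 and -0.60; with chromosome medians subtracted they stood at -1.26 and -0.81.

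Among lysine demethylases, Kdm5b showed the largest change, a fall to 12.8% of the control mean. Kdm5b, which removes methyl groups from H3K4, measured 2203, 2219 and 2088 scaled counts in clones 5, 6 and 7, against 18259, 15112 and 17662 in control replicates 1, 2 and 3. The log2 fold change was -2.97 ± 0.10 (adjusted p = 8.1e-08 in limma), and -2.38 with chromosome medians subtracted, as it lies on chromosome 1. Per kilobase of exon it stood at 131 scaled counts in the clones and 1028 in the controls, where it held the fifth place among members. The gene spans chr1:134560171-134635285 (GRCm38). Its relative Kdm5a measured 3431, 3399.8 and 3003 scaled counts in the clones and 2337, 1777 and 2672 in the controls, with all clones above all controls (log2 fold change 0.55 ± 0.15, adjusted p = 0.0101 in limma). The rise of Kdm5a was no longer called with chromosome medians subtracted (0.17); it lies on chromosome 6, whose median was 0.41. Kdm1a, or LSD1, which removes mono- and dimethylation of H3K4, measured 3351, 3534 and 3187 scaled counts in the clones and 9516, 8381 and 7733 in the controls (log2 fold change -1.34 ± 0.11), again with no overlap. Its relative Kdm1b measured 551, 614 and 477 scaled counts in the clones and 711, 651 and 672 in the controls, with a log2 fold change of -0.31 ± 0.14 (adjusted p = 0.0637, limma), not called although no clone reached a control. Kdm1b was called lower under quantile normalization (-0.51). About 9.19% of Kdm1b exon bases are shared with Dek on the opposite strand, and the sources used here do not say whether the counting used strand.

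Demethylases of other lysines moved in both directions. Over the whole group of 12, 5 rose, 3 fell and 4 were not called, with a median of 0.05. The share called was 66.7%, beside 73.5% of all genes. Kdm2a, an H3K36 demethylase that binds unmethylated CpG islands, measured 7420.2, 7163 and 7493 scaled counts in the clones and 2639, 2216 and 2793 in the controls, a 2.89-fold higher mean in the clones (log2 fold change 1.54 ± 0.11). Kdm4c, which acts on H3K9 and H3K36, measured 1995, 1993 and 1904 scaled counts in the clones and 4288, 3413 and 4147 in the controls (log2 fold change -1.0 ± 0.11). Its relative Kdm4a measured 2028, 2067 and 2192 scaled counts in the clones and 1774, 1916 and 2380.4 in the controls and overlapped (log2 fold change 0.06 ± 0.13, adjusted p = 0.677 in limma). Kdm4a was called higher with chromosome medians subtracted (0.35) and was not called under quantile normalization (-0.14). Kdm7a, a demethylase of H3K9 and H3K27, and Kdm6b, an H3K27 demethylase, rose, with log2 fold changes of 1.61 ± 0.22 and 1.0 ± 0.16. Kdm3b, of H3K9, had a log2 fold change of 0.36 ± 0.11, a call lost without clone 5 (0.32), clone 6 (0.35) or control replicate 1 (0.32) and under quantile normalization (0.20). Kdm3a and Kdm4b, with log2 fold changes of -0.23 and 0.04, were not called, and Kdm3a was called lower without control replicate 2 (-0.38), under quantile normalization (-0.41) and with chromosome medians subtracted (-0.62).

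**Figure D2:**
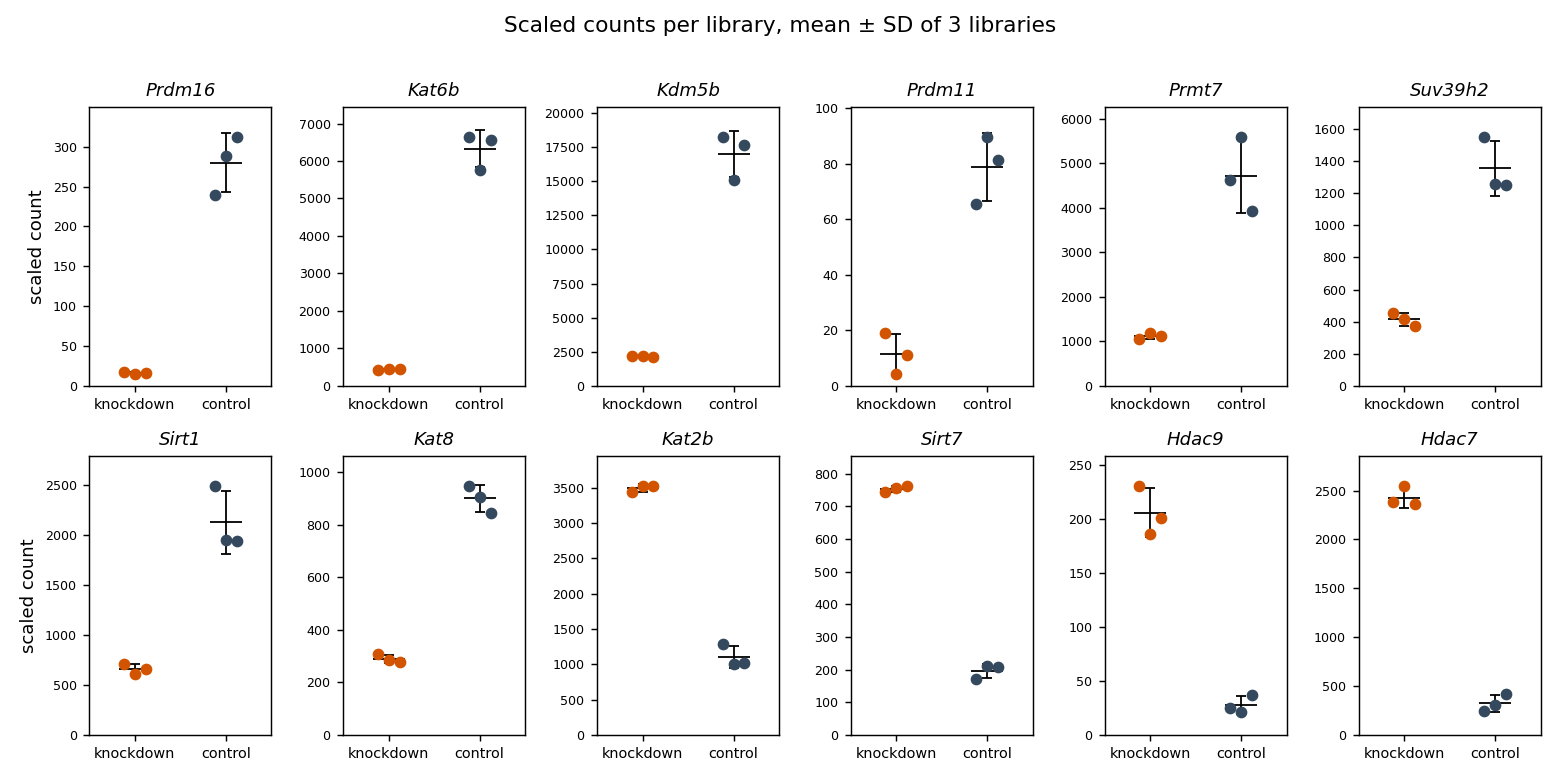
Scaled counts (y axis, linear from 0, a scale per panel) in the 3 knockdown clones and 3 control libraries for the 12 members with the largest log2 fold changes in size, leaving out Prmt8, which had no read in the clones. Points are libraries and bars are mean ± SD; in none of the 12 panels do the groups overlap, and Kat6b stands at 439 in the clones against 6326 in the controls.

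Suv39h2 and Suv420h2, methyltransferases of heterochromatin marks, were lower in the clones. Among 14 SET domain genes outside the H3K4 group together with Dot1l, 7 fell, 3 rose and 4 were not called, with a median of -0.32. That is 71.4% called, near the 73.5% of all genes, of which 38.3% were lower and 35.2% higher. Suv39h2, which trimethylates H3K9 in heterochromatin, measured 456, 414 and 375 scaled counts in the clones and 1551, 1259 and 1252 in the controls (log2 fold change -1.70 ± 0.14). Ehmt1, which with its partner EHMT2 dimethylates H3K9, had a log2 fold change of -0.05 ± 0.09 and was not called (adjusted p = 0.615, limma), except under quantile normalization (-0.25). For H4K20 the enzymes split. Suv420h2, which makes the trimethyl mark in heterochromatin, measured 583, 580.5 and 605 scaled counts in the clones and 1275, 1914 and 1609 in the controls (log2 fold change -1.42 ± 0.15). Suv420h1 measured 989.8, 828 and 963 scaled counts in the clones and 930.0, 751 and 795 in the controls and overlapped (log2 fold change 0.17 ± 0.13, adjusted p = 0.275 in limma). Setd8, the sole monomethyltransferase of H4K20 and a regulator of cell division, measured 5501, 5458 and 5818 scaled counts in the clones and 3151, 3229 and 3124 in the controls (log2 fold change 0.82 ± 0.09), with every clone above every control.

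The H3K36 enzymes split as well. Whsc1, which encodes the dimethyltransferase NSD2, measured 5135, 4753 and 4572 scaled counts in the clones and 2799, 2349 and 3052 in the controls (log2 fold change 0.82 ± 0.12). Nsd1, which makes the same mark, measured 4072, 3520.0 and 3579 scaled counts in the clones and 6242, 4905 and 5018 in the controls (log2 fold change -0.53 ± 0.12), so its clones lay below its controls. Whsc1l1 (NSD3) had a log2 fold change of 0.46 ± 0.13, a call lost under quantile normalization (0.28). Setd2, which makes the trimethyl mark of H3K36, had a log2 fold change of -0.21 ± 0.12, not called (adjusted p = 0.135, limma) except without control replicate 2 (-0.30) and under quantile normalization (-0.38). Setd6, which methylates the NF-κB subunit RELA, measured 579, 565 and 574 scaled counts in the clones and 1679, 1672 and 1716 in the controls (log2 fold change -1.56 ± 0.10). It lies on chromosome 8 and stood at -1.08 with chromosome medians subtracted. Setd4 and Setd5 fell by 1.08 and 0.48 on the log2 scale. Dot1l, the H3K79 methyltransferase, had a log2 fold change of -0.43 ± 0.13, a call lost without clone 5 (-0.41) or clone 6 (-0.39). Setd3, an actin histidine methyltransferase despite its name, had a log2 fold change of 0.16 ± 0.10 and was not called.

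PRDM genes, zinc finger proteins with a domain related to SET, held some of the widest differences at low counts. Of 9 tested, 2 rose, 3 fell and 4 were not called, with a median of 0.10. The share called was 55.6%, beside 73.5% of all genes, a difference that was not tested. Prdm16, a regulator of brown fat and of blood stem cells, measured 16.9, 14.4 and 15.7 scaled counts in the clones and 239.6, 288 and 312 in the controls (log2 fold change -4.07 ± 0.22), which rests on 48 reads over the clones and 831 over the controls. Prdm11 measured 18.9, 4.11 and 11.1 scaled counts in the clones and 65.3, 89.6 and 81.4 in the controls (log2 fold change -2.89 ± 0.47, and -1.84 under quantile normalization), and clone 6 was lowest. Prdm1, which encodes BLIMP1, a repressor that specifies germ cells and plasma cells, measured 1936, 1863 and 1755 scaled counts in the clones and 1054, 792 and 551 in the controls (log2 fold change 1.26 ± 0.21). The meiotic gene Prdm9, which methylates H3K4 at recombination hotspots, rose, with a log2 fold change of 1.25 ± 0.27 (1.93 under quantile normalization), at 111 scaled counts in the clones and 47.3 in the controls on average. Prdm10 fell by 0.61 on the log2 scale. Prdm2, Prdm4 and Prdm15 had log2 fold changes of 0.14, 0.20 and 0.10 and were not called. Prdm4 was called without control replicate 1 (0.27), and Prdm2 with chromosome medians subtracted (0.42). Prdm6, below the minimum mean, had 1 read in the clones and 40 in the controls, a ratio of 40.5 of controls over clones with a 95% counting interval of 7.28 to 1601. Such intervals and floors hold counting error alone, because reads amplified by PCR with no molecular identifiers do not each stand for 1 molecule.

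Of 7 arginine methyltransferase genes tested, 5 fell, 1 rose and 1 was not called (38.3% of all genes were called lower; the difference was not tested), with a median of -0.69, which is the same with Prmt8 at its bound. Prmt5, the main enzyme of symmetric arginine dimethylation, measured 2703, 2487 and 2691 scaled counts in clones 5, 6 and 7, against 8284, 8502 and 7390.3 in control replicates 1, 2 and 3 (log2 fold change -1.62 ± 0.10, adjusted p = 1.2e-06 in limma). Per kilobase of exon it was the highest member in the controls. Prmt7, which makes monomethylarginine, measured 1053, 1189.8 and 1127 scaled counts in the clones and 4625, 5588 and 3917 in the controls (log2 fold change -2.05 ± 0.14). For both genes every clone lay below every control. Prmt5 lies on chromosome 14 and Prmt7 on chromosome 8, whose genes had medians of -0.57 and -0.49; with these subtracted their log2 fold changes were -1.03 and -1.57. Prmt8, a membrane-bound enzyme of brain, measured 32.2, 19.4 and 21.1 scaled counts in the controls and had no read in any clone, so it was at least 8.23-fold lower against a floor of 3 reads per library. Prmt1, which makes most asymmetric dimethylarginine, fell by 0.69 on the log2 scale (SE 0.19) and Prmt3, which acts on a ribosomal protein, by 0.58 (SE 0.14). Prmt2 was the member that rose (log2 fold change 1.42 ± 0.14), at 1024 ± 51.2 in the clones and 385 ± 55.9 in the controls (SD, n = 3 each). Prmt6 had a log2 fold change of 0.11 ± 0.16 and was not called, and 23.4% of its exon bases are shared with an opposite-strand gene in the table.

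Among acetyltransferases the largest change was a fall of Kat6b. Kat6b, which encodes MORF, the catalytic subunit of an H3K23 acetyltransferase complex, measured 421, 461 and 435 scaled counts in clones 5, 6 and 7, against 6644, 5759.8 and 6573 in control replicates 1, 2 and 3. The clones kept 6.94% of the control mean (log2 fold change -3.84 ± 0.11, adjusted p = 3.6e-08 in limma). Kat6b lies on chromosome 14, at chr14:21481434-21672478, and with chromosome medians subtracted its log2 fold change was -3.26. Its close relative Kat6a, or MOZ, measured 3633, 3389 and 3336 scaled counts in the clones and 2753, 2212 and 2877 in the controls, with all clones above all controls (log2 fold change 0.41 ± 0.12); this call was lost without clone 5 (0.37) and under quantile normalization (0.23). Of the 9 acetyltransferase genes, 3 rose, 3 fell and 3 were not called, so 66.7% were called, beside 73.5% of all genes.

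The other acetyltransferases differed among themselves. Kat2b, or PCAF, measured 3430.1, 3522 and 3522 scaled counts in the clones and 1282, 1002 and 1015 in the controls (log2 fold change 1.67 ± 0.12), a 3.17-fold higher mean in the clones. Kat2a, or GCN5, the alternative catalytic subunit of the same complexes, measured 2889.9, 3357 and 3400.4 scaled counts in the clones and 3251, 3862 and 3043 in the controls and overlapped (log2 fold change -0.07 ± 0.12, adjusted p = 0.618 in limma). The pseudogene Kat2b-ps had 25 reads over the clones and 13 over the controls, under the minimum, so few reads were assigned to it. Kat8, or MOF, the main H4K16 acetyltransferase, measured 307, 285 and 277 scaled counts in the clones and 948, 907 and 847 in the controls (log2 fold change -1.63 ± 0.13). Kat7, or HBO1, which acetylates H3K14 and serves replication origins, was lower, with a log2 fold change of -0.76 ± 0.10. The coactivator pair Ep300 and Crebbp had log2 fold changes of 0.10 ± 0.11, not called, and 0.55 ± 0.12, called higher and also under quantile normalization (0.34). Kat5, or TIP60, had a log2 fold change of -0.22 ± 0.12 and was not called, except without control replicate 3 (-0.33), under quantile normalization (-0.44) and with chromosome medians subtracted (-0.61); 12.1% of its exon bases are shared with Rnaseh2c on the opposite strand.

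Of 4 histone deacetylases of class IIa, 3 rose; 35.2% of all genes were called higher, and the difference was not tested. These enzymes bind MEF2 factors and shuttle between nucleus and cytoplasm. Hdac7 measured 2381, 2548 and 2361 scaled counts in clones 5, 6 and 7, against 246, 310.0 and 418 in control replicates 1, 2 and 3, a 7.48-fold higher mean in the clones (log2 fold change 2.93 ± 0.18, adjusted p = 1.4e-06 in limma). Hdac9 measured 231, 186 and 201 scaled counts in the clones and 24.6, 21.6 and 37.2 in the controls (log2 fold change 2.88 ± 0.26). In both, the lowest clone stood far above the highest control. Hdac7 lies at chr15:97792664-97844502 and Hdac9 at chr12:34047580-34917095. Hdac4 rose less (log2 fold change 0.48 ± 0.11), a call lost under quantile normalization (0.27), and Hdac5 had a log2 fold change of -0.17 ± 0.25, not called (adjusted p = 0.549, limma).

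Class I deacetylases, which include the catalytic subunits of the NuRD, SIN3, CoREST and NCOR corepressor complexes, changed by under 2-fold. Hdac1 measured 2790.4, 2956 and 2741 scaled counts in the clones and 6302, 5598 and 4765 in the controls (log2 fold change -0.96 ± 0.12), with no overlap. Hdac2 measured 5931, 5424 and 5349 scaled counts in the clones and 5198, 4091 and 3843 in the controls (log2 fold change 0.36 ± 0.13), and its call (adjusted p = 0.0319, limma) was lost without clone 5 (0.31), clone 6 (0.38), clone 7 (0.39), control replicate 2 (0.32) or control replicate 3 (0.27), with no mean-variance trend in the model, with chromosome medians subtracted (0.18) and under quantile normalization (0.20). Hdac8 rose, with a log2 fold change of 0.70 ± 0.16, and Hdac3 had a log2 fold change of -0.16 ± 0.10 and was not called except under quantile normalization (-0.36).

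Of the remaining deacetylases, Hdac10, which deacetylates polyamines, measured 438, 391 and 482 scaled counts in the clones and 156, 216 and 166 in the controls (log2 fold change 1.29 ± 0.18). Hdac6, the tubulin deacetylase, measured 1709, 1791 and 1851 scaled counts in the clones and 2085, 2289 and 4390.2 in the controls. All clones lay below all controls, and control replicate 3 stood well above the other controls. Its call (log2 fold change -0.63 ± 0.25, adjusted p = 0.0466 in limma) was lost without clone 5 (-0.60), clone 6 (-0.63) or clone 7 (-0.66), with a pseudocount of 0.5, with no mean-variance trend in the model and with chromosome medians subtracted (-0.54); without control replicate 3 it was called at -0.29. Hdac11, a lysine defatty-acylase, fell by 1.13 on the log2 scale (SE 0.17). Over all 11 deacetylases, 6 rose, 3 fell and 2 were not called, with a median of 0.36. The share called was 81.8%, beside 73.5% of all genes (35.2% higher and 38.3% lower), a difference that was not tested.

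Sirtuins, the NAD-dependent deacylases, fell in 2, rose in 2 and were not called in 3 of 7 cases (median 0.05). The share called was 57.1%, beside 73.5% of all genes, a difference that was not tested. Sirt7, a nucleolar enzyme that deacetylates H3K18, measured 744, 756 and 762 scaled counts in the clones and 170.5, 209.5 and 207 in the controls (log2 fold change 1.95 ± 0.14, adjusted p = 3.5e-06 in limma). Sirt1, the best studied nuclear sirtuin, measured 705, 605 and 659.6 scaled counts in the clones and 2491, 1951 and 1943 in the controls (log2 fold change -1.69 ± 0.13). Sirt3, the main mitochondrial deacetylase, measured 216, 203 and 213 scaled counts in the clones and 506, 669.6 and 685 in the controls (log2 fold change -1.54 ± 0.16). None of these 3 overlapped between groups. Sirt2, a mainly cytoplasmic tubulin deacetylase, measured 931, 1052 and 1121 scaled counts in the clones and 722, 755 and 695 in the controls (log2 fold change 0.51 ± 0.12), a call lost under quantile normalization (0.29). Sirt6, which deacetylates H3K9, measured 419, 637 and 496 scaled counts in the clones and 399.6, 701 and 384 in the controls, and the groups overlapped (log2 fold change 0.10 ± 0.26, adjusted p = 0.735 in limma). The mitochondrial Sirt4 and Sirt5 had log2 fold changes of 0.05 and -0.19 and were not called.

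Ratios between related enzymes were compared within each library, where library scaling has almost no effect on the value. Of 20 pairs, the 3 clones and 3 controls did not overlap in 16 (77.3% of all single genes did not overlap), each with an exact two-sided permutation p of 0.1, the smallest the design allows, and 0.125 after Benjamini-Hochberg adjustment over the 20 pairs, so none could pass 0.05. The mean log2 ratio differed between groups by at least 1 in 12 pairs, without subtraction of chromosome medians. The widest was Kat6a over Kat6b, at 2.97 ± 0.12 in the clones and -1.28 ± 0.09 in the controls (SD, n = 3 each). Kdm5a over Kdm5b followed, at 0.59 ± 0.06 in the clones and -2.93 ± 0.18 in the controls. Sirt2 over Sirt3 was 2.29 ± 0.16 in the clones and 0.24 ± 0.25 in the controls, and Hdac6 over Hdac10 was 2.03 ± 0.14 in the clones and 3.95 ± 0.69 in the controls. In the other 4 pairs the libraries overlapped. Hdac7 over Hdac9 differed by 0.06 (exact permutation p = 0.8) although both genes rose, and Kdm4a over Kdm4b by 0.02 (exact permutation p = 0.9). With chromosome medians subtracted, log2 fold changes were -0.68 for Hdac1 and 0.18 for Hdac2, and -0.30 for Nsd1 and 0.53 for Whsc1. For Kdm1a and Kdm1b they were -1.06 and -0.08, so these pairs lay less than 1 apart. Hdac4 and Hdac5 (1.06 and -0.35) and Kdm3a and Kdm3b (-0.62 and 0.50) then lay more than 1 apart.

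**Figure D3:**
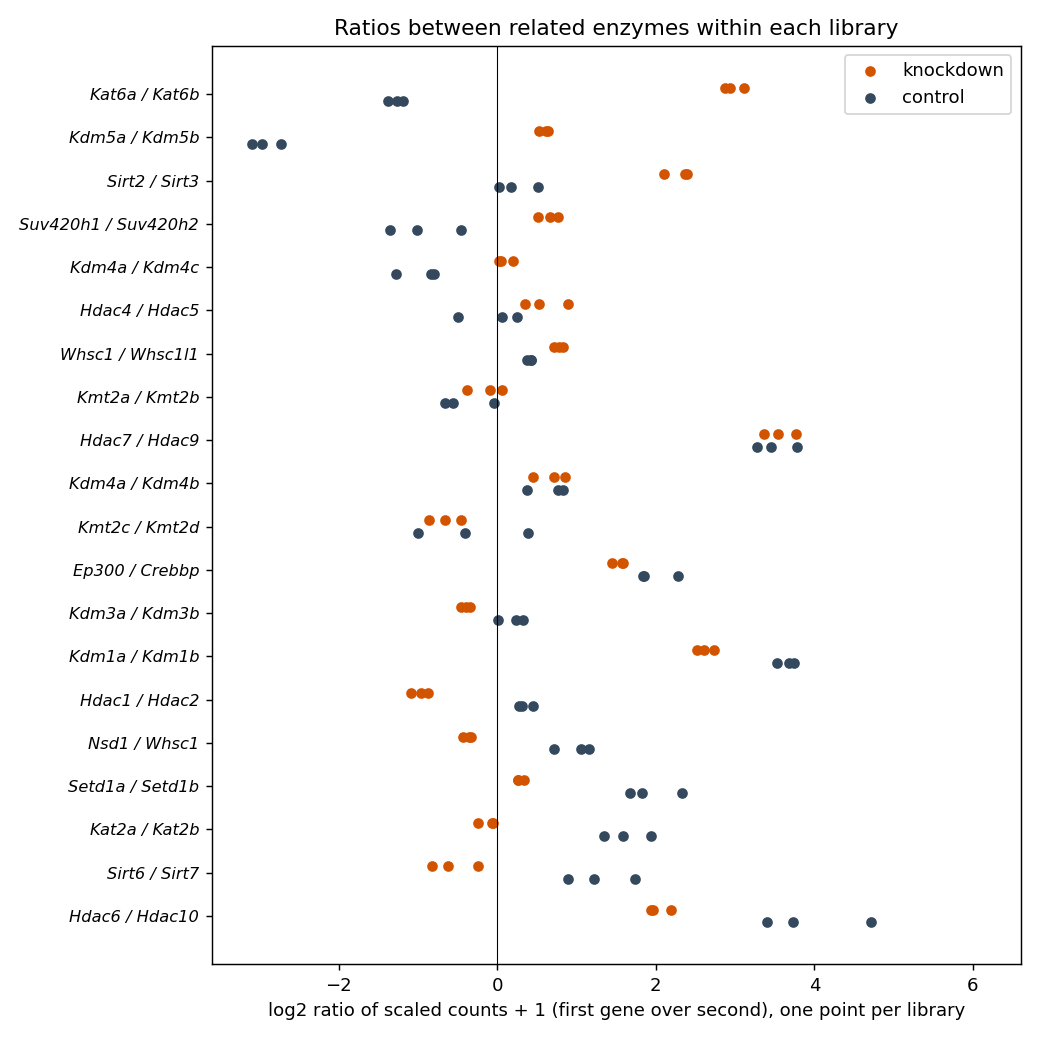
Log2 ratio of scaled counts + 1 of the first gene over the second (x axis) in each of 6 libraries for 20 pairs of related enzymes, ordered by the difference between groups, with knockdown clones in orange above controls in dark grey. Kat6a over Kat6b and Kdm5a over Kdm5b lie above 0 in all clones and below 0 in all controls.

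After division by exon length, the gene with the higher level differed between the groups in 5 of the 20 pairs, in every library. Kdm5a made up 63.8% ± 0.97 in the clones and 13.4% ± 1.5 in the controls of the summed per-kilobase level of Kdm5a and Kdm5b (SD, n = 3 each). Kat6a made up 93.5% ± 0.5 in the clones and 43.0% ± 1.6 in the controls of its pair with Kat6b. Hdac1 made up 39.8% ± 1.8 in the clones and 62.3% ± 1.5 in the controls of its pair with Hdac2. Nsd1 made up 42.6% ± 0.89 in the clones and 65.4% ± 3.7 in the controls of its pair with Whsc1, and Kdm4a 51.8% ± 1.7 in the clones and 34.1% ± 4 in the controls of its pair with Kdm4c. The Kdm4a share was 50.6%, 51.1% and 53.7% in clones 5, 6 and 7, so its lead there was small. In other pairs the same gene stayed ahead: Kat2a made up 56.2% ± 1.9 in the clones and 81.0% ± 3.2 in the controls of its pair with Kat2b, and Sirt6 55.5% ± 5 in the clones and 81.6% ± 4.3 in the controls of its pair with Sirt7. Exon lengths are the union of GENCODE M21 exons, which need not be the transcripts these cells use. Chromosome medians were not subtracted from these shares either.

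Per kilobase of exon, the most abundant members in the clones were Hdac2 (1244 ± 70.8), Setd8 (1054 ± 37.1), Kat2a (924 ± 81.3) and Hdac1 (821 ± 32.7), in scaled counts per kilobase (mean ± SD, n = 3). In the controls they were Prmt5 (2036 ± 149), Kdm1a (1649.6 ± 174), Hdac1 (1612 ± 223) and Kat7 (1289 ± 126). In the control order Kdm1a and Hdac1 did not differ beyond their SDs, nor did Hdac1 and Kat7. In the clones the ranges of mean ± SD of Kat2a and Hdac1 overlapped, while Hdac2 stood apart from Setd8 and Setd8 from Kat2a. Hdac1 was among the first 4 in both groups. Prmt1 has no length here, since its identifier was not matched in the annotation.

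Other parts of the acetylation machinery moved in both directions, in lists beyond the members. Among HDAC complex subunits 64.5% were called and among acetyltransferase complex subunits 78.0%, beside 73.5% of all genes (35.2% higher and 38.3% lower). Of the HDAC complex subunits (31 tested of 31 listed), 11 rose, 9 fell and 11 were not called (median 0.25). The methyl-CpG binding NuRD subunit gene Mbd2 measured 1976, 1835 and 1684 scaled counts in the clones and 681, 659 and 665 in the controls (log2 fold change 1.45 ± 0.11). The CoREST subunit gene Rcor2, known for its high level in embryonic stem cells, measured 522, 686 and 444 scaled counts in the clones and 2285, 2852 and 2357 in the controls (log2 fold change -2.20 ± 0.17), and the SIN3 scaffold gene Sin3a 2698, 2634 and 2391 scaled counts in the clones and 6885, 5830.0 and 6773 in the controls (log2 fold change -1.33 ± 0.11). Of acetyltransferase complex subunits (41 tested of 44 listed), 14 rose, 18 fell and 9 were not called (median -0.05). Jade1 and Jade2, alternative scaffolds of HBO1 complexes, moved apart. Jade1 measured 821, 677 and 729 scaled counts in the clones and 7264, 6302 and 6674 in the controls (log2 fold change -3.18 ± 0.11), and Jade2 2549, 2754 and 2763 scaled counts in the clones and 411, 420.1 and 427 in the controls (log2 fold change 2.68 ± 0.10). Taf5l, a SAGA subunit, measured 793, 791 and 827 scaled counts in the clones and 3567, 3700.2 and 3010.1 in the controls (log2 fold change -2.09 ± 0.11).

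Among acetyl-lysine readers (11 tested of 11 listed), 2 rose, 4 fell and 5 were not called. The share called was 54.5% for the readers, 78.6% for the cofactor genes and 65.0% for the further enzymes below, beside 73.5% of all genes. Cecr2, a bromodomain protein of an ISWI remodeler, measured 1.99, 4.11 and 1.85 scaled counts in the clones and 3579, 2972 and 2847 in the controls, so it was all but absent from the clones. Mllt1 and Mllt3, YEATS domain readers of the super elongation complex, rose. Mllt1 measured 2874, 3651 and 3654 scaled counts in the clones and 756, 1099 and 788 in the controls, and Mllt3 948, 914 and 843 scaled counts in the clones and 413, 361 and 384 in the controls. Of genes that supply or consume the cofactors of these enzymes (14 tested of 14 listed), 4 rose, 7 fell and 3 were not called. Nnmt, which consumes the methyl donor S-adenosylmethionine, measured 205, 183 and 149 scaled counts in the clones and 5.68, 1.08 and 3.01 in the controls (log2 fold change 5.54 ± 0.42). Idh1, a source of the demethylase cofactor 2-oxoglutarate, measured 1054, 1160.0 and 1138 scaled counts in the clones and 4498, 3726 and 4612 in the controls (log2 fold change -1.93 ± 0.11). Nmnat3, of NAD synthesis, measured 7.96, 10.3 and 11.1 scaled counts in the clones and 86.2, 90.7 and 143 in the controls (log2 fold change -3.29 ± 0.29). Of 20 further enzymes outside the symbol pattern, 7 rose, 6 fell and 7 were not called. They include Hat1, which acetylates newly made histone H4, at 1934, 1818 and 1725 scaled counts in the clones and 14954, 12456 and 14080.5 in the controls (log2 fold change -2.92 ± 0.11). The circadian factor gene Clock measured 3485, 2953 and 3167 scaled counts in the clones and 475, 438 and 644 in the controls (log2 fold change 2.64 ± 0.16), and the methyltransferase gene Smyd3 266, 289.7 and 266 scaled counts in the clones and 1168, 1391 and 1176 in the controls (log2 fold change -2.18 ± 0.13).

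Whole chromosomes differed between the groups, so each member was also set against its chromosome. With chromosome medians subtracted, 28 members were higher and 28 lower, and the 12 genes of the plot by library kept their direction. On the 3 chromosomes with the lowest medians lay Kdm5b and Hdac4 on chromosome 1 (median -0.60), Kat6b and Prmt5 on chromosome 14 (-0.57), and Kat6a, Prmt7, Setd6 and Whsc1l1 on chromosome 8 (-0.49). Hdac4, Kat6a and Whsc1l1 rose against the lower level of their chromosomes and stood at 1.06, 0.89 and 0.94 after subtraction. The rises of Setd8 and Whsc1 on chromosome 5 (median 0.29) stood at 0.52 and 0.53, the fall of Nsd1 on chromosome 13 (-0.26) at -0.30 and that of Setd5 on chromosome 6 at -0.86. On chromosome 6, with the highest median (0.41), Hdac11 had a log2 fold change of -1.13 as measured and -1.52 after subtraction. The cause of the chromosome differences was not tested.

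**Figure D4:**
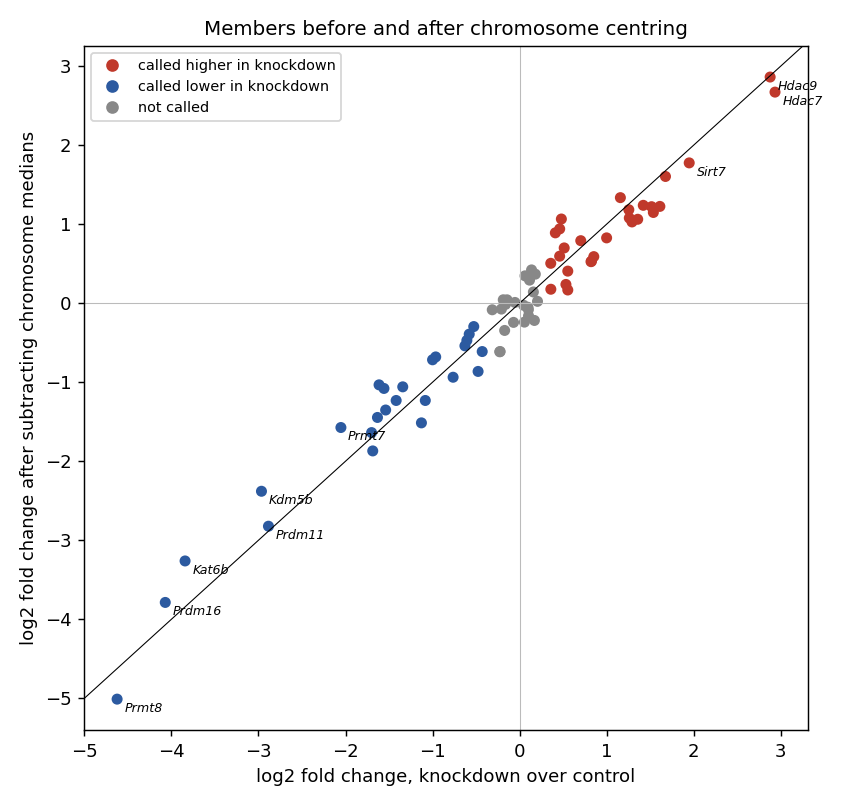
Log2 fold change of the tested members with a mapped chromosome, 1 left out (knockdown over control, x axis) against its value relative to the other genes of its chromosome (y axis, the chromosome's median removed library by library), with the line of equal values. Members called higher are red, lower blue and not called grey; Kdm5b and Kat6b lie above the line at -2.38 and -3.26 after subtraction.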

How the data were processed

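Libraries were stranded TruSeq from poly(A) RNA, made with 8 cycles of PCR from an input of 500 ng, per the labels' protocols. Tools in the submitters' processing notes are STAR 2.5.0a, cutadapt 1.6, DESeq 1.22.1 and HTSeq 0.5.3, with build mm10 and no settings. The deposited values are a signal, read counts scaled by 1 factor per library per the file headers; within each column all are whole multiples of 1 step within 0.001 read, which gave the read totals. Libraries of a group differed by more than sampling noise (chi-square over its degrees of freedom 11.4 to 14.5 for pairs of clones, 33.6 to 57.5 for pairs of controls).

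Groups came from the sample titles. The main test was limma 3.58.1 (R 4.3.3, moderated with a mean-variance trend) on log2(value + 1). It took genes averaging 10 or more over the 6 libraries, with Benjamini-Hochberg adjustment over all 15179 and a threshold of 0.05; fold changes on this scale understate those of low genes. The test was checked on simulated counts in which few genes changed and both groups had the same noise. These data differ in both respects, so the check does not cover them. Paralog ratios and Exosc2 had exact permutation tests (scipy 1.17.1). Positions and lengths are from GENCODE M21 (GRCm38, the mm10 assembly), matched by identifier for 17860 genes (99.71%) and all members but Prmt1.

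Members and lists were chosen with earlier results of these data known. Values in every library are printed for 40 members: in each role group the 3 with the smallest p, members with a log2 fold change of at least 2 in size and no overlap, and pairs whose log2 ratio differed by at least 1; from each further list, the 3 with the smallest p. The others are given by single values and counts, except 1 tested member that enters the counts and is not reported here. Alternatives were pseudocounts of 0.5 and 5, no minimum, a mean of at least 50, unweighted TMM and quantile scaling, eBayes without trend or robust, chromosome medians subtracted, and each library left out. Where exons overlap a gene on the other strand, reads cannot be assigned with certainty, since the sources used here do not give the strand setting of the counting. This also holds for the called members Kdm3b (24.6% of exon bases shared with Gm26538), Hdac4 (22.4% with Gm26720) and Hdac11 (15.4% with Gm44002). Other software was matplotlib 3.10.9, numpy 2.4.6, Python 3.11.15 and pandas 2.3.3.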

Additional observations from a re-analysis of the deposited data

How the results depend on the processing

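Each choice was changed in turn over 15 alternatives. The count of called genes over the whole table stayed within 1.5 times the 11158 reported, from 10143 to 11491 with single libraries left out, and members called higher ranged from 23 to 28 and lower from 24 to 28 there. Of 54 called members, 43 kept direction and call under each alternative that tested them (Prmt8 and Prdm11 were not tested with a mean of at least 50), and 11 lost the call under at least 1 while keeping direction: Dot1l, Hdac2, Hdac4, Hdac6, Kat6a, Kdm3b, Kdm5a, Kmt2a, Kmt2c, Sirt2 and Whsc1l1. Every change of sign concerned members that were not called. Under quantile normalization these were Ep300 at -0.0796, Kdm4a at -0.14, Kdm4b at -0.18, Prdm15 at -0.0792, Prdm2 at -0.081, Prdm4 at -0.00539, Prmt6 at -0.0267, Setd3 at -0.0309, Sirt5 at 0.0894, Sirt6 at -0.0621, Suv420h1 at -0.0449. With chromosome medians subtracted they were Ehmt1 at 0.00845, Ep300 at -0.16, Kdm4b at -0.0275, Prdm15 at -0.0527, Setd1a at 0.0416, Sirt4 at -0.24, Sirt5 at 0.0421, Sirt6 at -0.0824, Suv420h1 at -0.22. With single libraries left out, 6 members ran over both signs: Hdac5 (-0.39 to 0.0523), Kat2a (-0.14 to 0.028), Kdm4a (-0.0279 to 0.18), Kdm4b (-0.13 to 0.16), Sirt4 (-0.10 to 0.28), Sirt6 (-0.0605 to 0.38). Members that gained a call in at least 1 alternative include Ehmt1, Hdac3, Kat5, Kdm1b, Kdm3a, Kdm4a, Kmt2b, Prdm2, Prdm4, Setd1a and Setd2. With single libraries left out, the differences of 3 paralog ratios whose groups overlapped ran over both signs: Kmt2c over Kmt2d (-0.65 to 0.0433), Hdac7 over Hdac9 (-0.0603 to 0.20) and Kdm4a over Kdm4b (-0.12 to 0.13). The cause of these differences was not tested. The 2 count-model tests planned were not run, because in 2 columns the size of 1 read lies so close to 1 that whole reads could not be accepted as recovered there. Read totals, read numbers and counting intervals given here take 1 step as 1 read in every column, these 2 included. No paired analysis was possible because the clones carry the numbers 5 to 7 and the control replicates 1 to 3, none of them shared. Depth limits Prmt8, Prdm6, Prdm11 and Prdm16, which have few reads in the clones.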
